A study of Mus musculus with 8 samples.

Results

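The clustered protocadherins were followed across 4 mouse lung squamous cell carcinoma (LUSC) cell lines by bulk RNA-seq. The members are the protein-coding genes whose symbols name an isoform of the alpha, beta or gamma cluster, without regard to their values. Of the 55487 genes in the deposited tables, 57 met this rule, 14 alpha, 22 beta and 21 gamma. In the alpha cluster 2 gene identifiers carry the symbol Pcdha11 (ENSMUSG00000007440.10 and ENSMUSG00000102206.5), and they were kept apart. Pcdhgb8 is annotated as a polymorphic pseudogene, so it is not a member.

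The lines PL1, PL12, PLA and PLA4 were derived from genetically engineered mouse models, and each is represented by 2 libraries, 8 in all. The study asks what the loss of Ackr3 does, a receptor that takes up chemokines without the usual signalling, and its labels set PL beside PLA lines without spelling out the letters or giving further alleles, age or treatment. PL1 and PL12 are called the PL lines here, and PLA and PLA4 the PLA lines. Each name stands for 1 line, so a difference between 2 lines cannot be told apart from a difference between their genotypes. Whether both libraries of a line trace back to separate dishes is not in the labels. The p-values of fits over libraries therefore measure the spread between libraries, which may be technical. Those on counts summed per line measure the spread between lines, with 2 lines of each kind.

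Clustered protocadherins are cell-surface adhesion proteins of the cadherin family, known best from neurons, where like isoforms on neighbouring cells bind each other. Each isoform has its own promoter and first exon, and a neuron uses only some of them, through binding of the factor CTCF, looping by cohesin and DNA methylation. In the alpha and gamma clusters the variable first exon is spliced to constant exons that all isoforms of the cluster share, whereas beta isoforms are each encoded by a single large exon. The last isoforms of the alpha and gamma clusters, the C-types, are set apart because neurons use them more uniformly.

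All 3 clusters lie on the plus strand of chromosome 18 (GRCm38, GENCODE mouse release 21). The alpha genes span 36930184 to 37187661, the beta genes 37264938 to 37524479 and the gamma genes 37661793 to 37841873. The shared exons limit how far isoforms can be told apart. A median of 53.45% of the exonic bases of an alpha member and 44.6% of those of a gamma member also belong to another member. For a beta member the median was 0% and the maximum 9.67%. Of all 50-base words in a member's annotated transcripts, a median of 39.9% in alpha, 95.55% in beta and 55.6% in gamma occurred in no other gene. The deposited values are estimated counts, and a count that is not whole (tolerance 1e-06) shows that reads were divided between genes. Among values above 0 this held for 100% in alpha, 47.6% in beta and 96.9% in gamma. Alpha and gamma levels are therefore less certain than beta levels.

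Total counts ranged from 48857960 to 142458281 per library, so that a floor of 3 counts corresponds to 0.0208 to 0.0614 CPM, the unit used for read counts after TMM scaling by library size. This floor covers counting error only. Ackr3 stood at 25.3 to 86.3 CPM in the PL libraries and at 0.0254 to 0.387 CPM in the PLA libraries. The 2 libraries of PL1 and those of PLA4 stood further apart than the others: 6.29% of the 18648 genes tested in PL1 and 7.59% in PLA4 differed over 2-fold between replicates (CPM + 1), against 0.343% in PL12 and 0.0429% in PLA. Col1a1, a collagen of fibroblasts, was at 0.575 CPM in PL1 replicate 1 and 254 CPM in PL1 replicate 2. Squamous and basal markers summed to 2757 to 19012 CPM and were lowest in PL12, where Trp63, a transcription factor of squamous and basal cells, was at 26.3 to 29.2 CPM, against 306 to 386 CPM in the other lines.

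In these lines the beta and gamma clusters were both expressed and the alpha cluster was close to silent. On the deposited TPM scale, which takes account of gene length, the members of a cluster summed to at most 0.68 TPM in alpha, to 4.33 to 41.1 TPM in beta and to 29.9 to 52.6 TPM in gamma. Between 5 and 16 of the 57 members reached 1 TPM in a library. The beta sum was 90.7 and 89.1 CPM in PL1 and 84.3 and 101.2 CPM in PLA4, 37.3 and 39.1 CPM in PLA, and 12.01 and 12.70 CPM in PL12. PL12 thus had the lowest beta sum, with a mean 7.28-fold below PL1, and PLA stood between, 2.36-fold below PL1. These line differences were larger than the gap between replicates, while the PL1 and PLA4 libraries overlapped. The gamma sum varied less, from 88.8 CPM in PL12 to 153.6 CPM in PLA4.

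**Figure D1:**
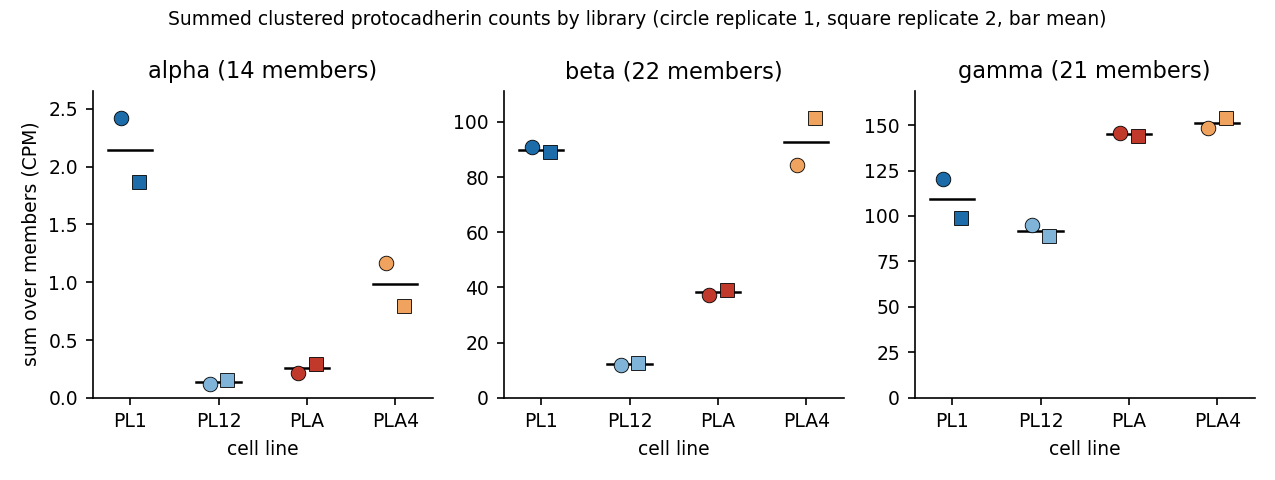
Summed CPM over the members of each cluster (y axes, each with its own scale from 0) for the 4 lines (x axis); circles and squares are replicates 1 and 2 and bars the mean. The beta sum is 84.3 to 101.2 CPM in PL1 and PLA4 and 12.01 to 12.70 CPM in PL12, while the alpha sum stays at or below 2.42 CPM.

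A low-count filter left 45 of the 57 members, 4 alpha, 21 beta and 20 gamma. The 12 others had too few reads to test, so the counts below do not cover all members. In edgeR's quasi-likelihood test of any difference among the 4 lines, with adjustment over all genes tested, 34 of the 45 passed at 0.05, while 52.9% of all genes did. The beta cluster supplied 21 of 21, the gamma cluster 11 of 20 and the alpha cluster 2 of 4. Of the alpha genes called, Pcdha8 had met the filter only through PL1. Leaving out single libraries gave 31 to 36 members.

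Of the alpha genes, Pcdha9 was the main transcript. It stood at 1.70 and 1.30 CPM in PL1, 0.968 and 0.491 CPM in PLA4, 0.171 and 0.237 CPM in PLA and 0.0614 and 0.0551 CPM in PL12. The lines followed the order of their beta sums in part, PL1 above PLA4 above PLA above PL12, with no overlap of libraries. PL12 was lower than PL1 by a log2 fold change of -4.68 (SE 0.55, edgeR adjusted p = 0.00366), and the adjusted p was 0.0509 without PL12 replicate 2.

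Pcdha8 had counts in both PL1 libraries, at 0.403 and 0.308 CPM, and was at 0 in the other 6 libraries. It met the low-count filter only through PL1, where it is high, so a call among lines is partly built in. It passed the test among lines (adjusted p = 0.0110), but not with DESeq2 (adjusted p = 0.106) or without PL1 replicate 1 (adjusted p = 0.0555). Pcdha5 reached at most 0.124 CPM and Pcdha11 (ENSMUSG00000007440.10) at most 0.104 CPM, and neither passed. Both alpha C-types were near or at 0: Pcdhac1 had no count in any library, and Pcdhac2 reached 0.0205 CPM, under the floor. At this depth a level below the floor was not detectable, so these genes cannot be called absent.

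All 21 tested beta members differed among the lines. In PL12, 19 of the 21 tested beta members were lower than in PL1 and none was higher, with a median log2 fold change of -2.85 against -0.03 over all genes. Of all genes, 23.7% were called in this comparison, 11.2% higher and 12.5% lower. PLA4 against PL12 gave the opposite picture, with 21 of 21 beta members higher (median 2.85, with 36% of genes called and 19.2% higher and 16.8% lower). PLA4 and PL1, although of different kinds, differed in 1 of 21 beta members (4.76%, median 0.08, with 8.54% of genes called, 4.61% higher and 3.93% lower). Members not called there can still stand apart. Pcdhb15 was lower in PLA4 by a log2 fold change of -1.86 (SE 0.50, edgeR adjusted p = 0.0725). Pcdhb8 was higher by 1.40 (SE 0.57, adjusted p = 0.164). Without PL12 replicate 1 or 2 the first count fell to 10, and without PL12 replicate 1 the second fell to 12.

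PLA had a mixed beta profile. Against PL1, 13 of the 21 tested beta members were lower and 1 was higher (27.3% of genes called, 14.4% higher and 13% lower), and PLA4 against PLA gave 14 higher and 1 lower (29% of genes called, 14.1% higher and 14.9% lower). Against PL12, PLA had 11 higher and 6 lower (37.7% of genes called, 20.4% higher and 17.3% lower). Comparisons that share a line are not independent of each other. Without PLA replicate 1 or 2, 6 and 9 beta members were called against PL1 and 11 and 8 against PL12, without PLA replicate 1 the count of PLA4 against PLA was 9, and without PL12 replicate 2 that of PLA against PL12 was 11.

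**Figure D2:**
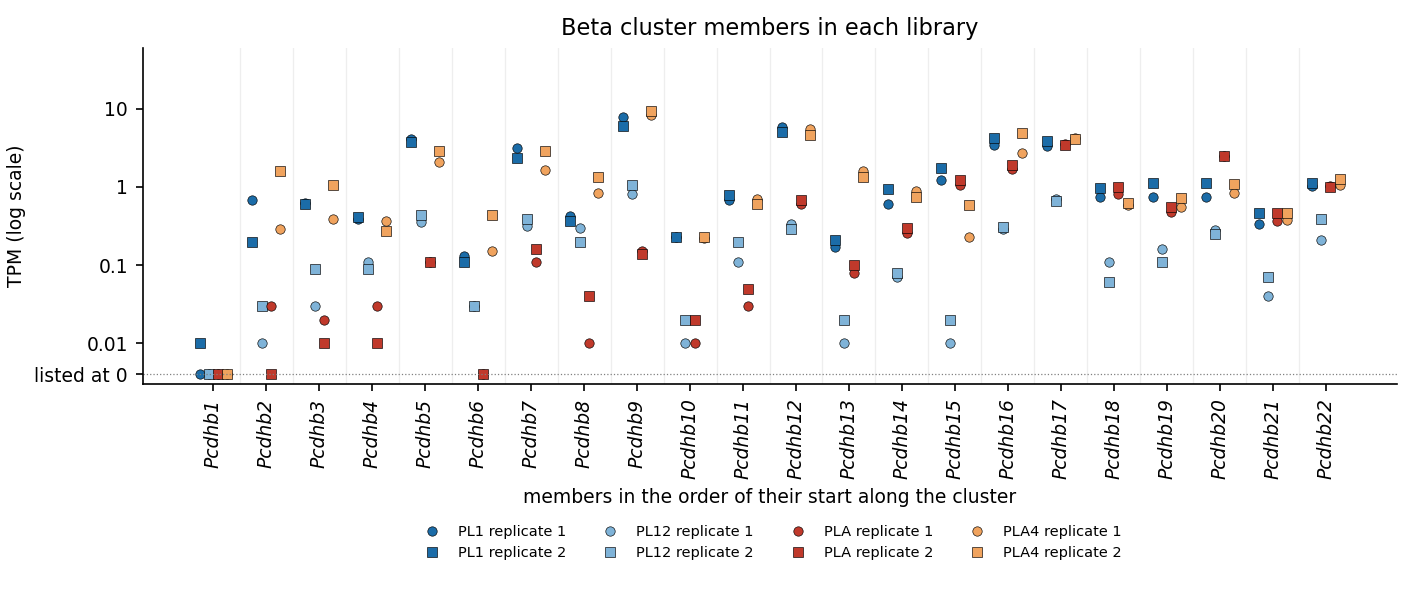
Deposited TPM (log y axis; values listed at 0 are drawn on the dotted line) of the 22 beta members in the order of their starts (x axis); circles and squares are replicates 1 and 2 and colours the 4 lines. PLA lies among PL1 and PLA4 at Pcdhb17 and Pcdhb21 and below all other lines for most members from Pcdhb2 to Pcdhb11.

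The members that were low in PLA lay next to each other. From Pcdhb2 to Pcdhb12, the sum was 2.23 and 2.52 CPM in PLA, 50.2 and 40.0 CPM in PL1, 41.6 and 50.3 CPM in PLA4 and 5.09 and 6.09 CPM in PL12. All 11 of these genes were called lower in PLA than in PL1, where 13% of all genes were. All 11 were called higher in PLA4 than in PLA, where 14.1% of all genes were. From Pcdhb15 to Pcdhb22, further along the cluster, the sum was 33.3 and 34.6 CPM in PLA, 36.5 and 43.4 CPM in PL1, 33.7 and 43.4 CPM in PLA4 and 6.47 and 6.10 CPM in PL12. Of these 8 genes, 1 was called lower in PLA than in PL1, 1 higher and 6 not. Of all genes, 13% were called lower there and 14.4% higher. All 8 were called lower in PL12 than in PL1 (12.5% of all genes) and all 8 higher in PLA than in PL12 (20.4%).

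PL12 was thus low along the whole beta cluster, and PLA along its first stretch. Between the stretches, Pcdhb13 was not called in PLA against PL1 and Pcdhb14 was called lower. The stretches were drawn after the values had been seen, so the split itself carries no test, and full counts within a stretch are partly built in. Without PLA replicate 1, the count called lower in PLA than in PL1 was 6 of the 11 in the first stretch, and 0 of the 8 in the second were called. Without either PL12 library, 5 of the 8 in the second stretch and 3 of the 11 in the first were called in PL12 against PL1.

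**Figure D3:**
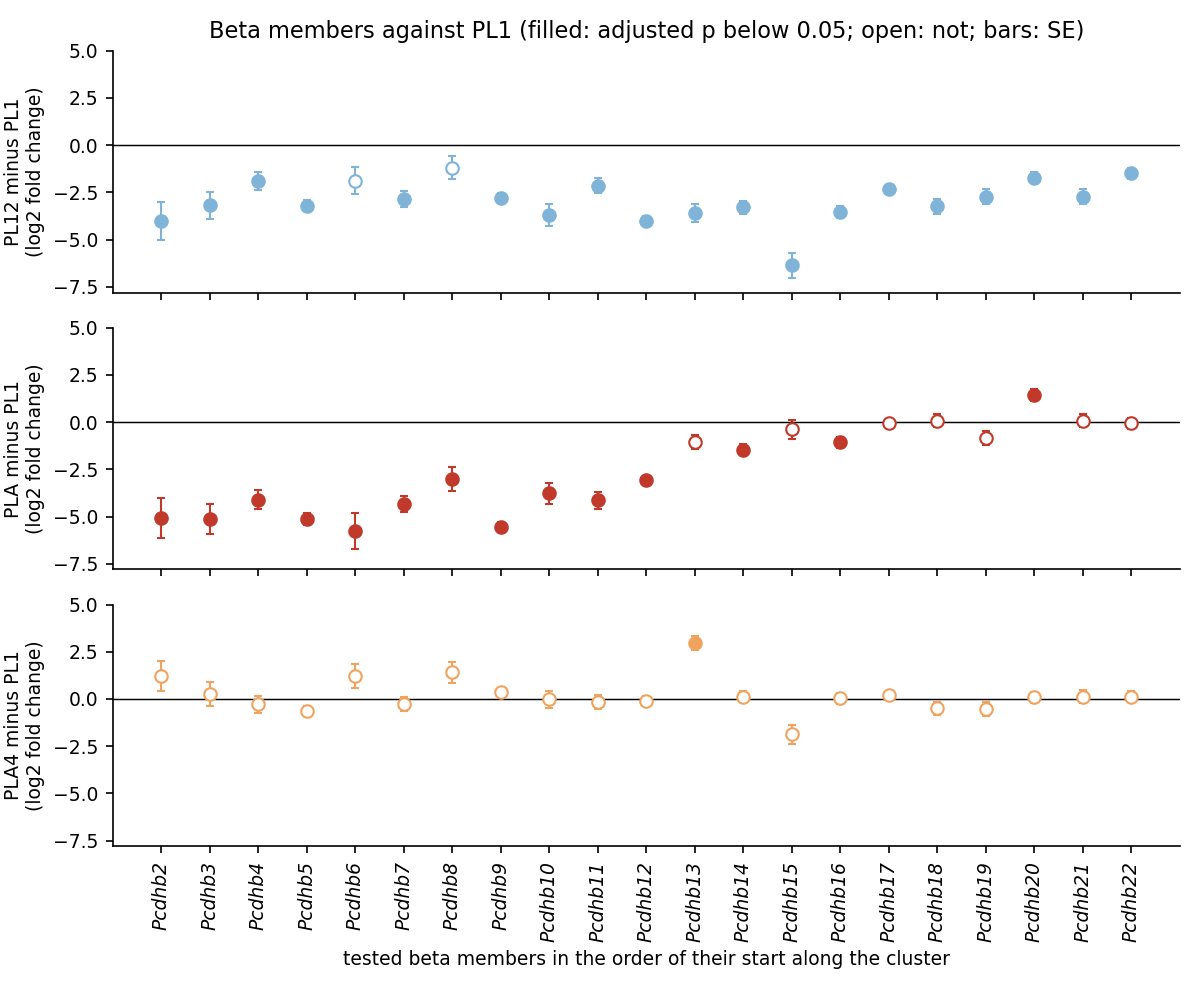
Log2 fold change against PL1 (y axes) of the 21 tested beta members in the order of their starts (x axis) in PL12, PLA and PLA4; bars are SE and filled points have an adjusted p below 0.05. PL12 is below 0 throughout, PLA is below -2.9 from Pcdhb2 to Pcdhb12 and nearer 0 after it, and in PLA4 only Pcdhb13 is filled.

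Pcdhb9 had the largest mean of the beta members, 4.23 TPM over the 8 libraries. It was at 15.6 and 11.4 CPM in PL1, 16.5 and 18.2 CPM in PLA4, 1.72 and 2.16 CPM in PL12 and 0.301 and 0.271 CPM in PLA. PLA was the lowest line, without overlap. The log2 fold change was -5.56 in PLA against PL1 (SE 0.28, edgeR adjusted p = 0.00058) and 5.92 in PLA4 against PLA (SE 0.29, adjusted p = 0.000399).

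Pcdhb5 followed the same order of levels apart from PLA4. It was at 9.46 and 8.22 CPM in PL1, 4.72 and 6.62 CPM in PLA4, 0.880 and 1.04 CPM in PL12 and 0.244 and 0.254 CPM in PLA. The fold change of PLA against PL1 was -5.14 on the log2 scale (SE 0.32, edgeR adjusted p = 0.000848). Pcdhb7 ranged from 5.05 to 7.14 CPM in PL1 and from 3.74 to 6.46 CPM in PLA4, so these libraries overlapped, and it was at or below 0.910 CPM in PL12 and 0.355 CPM in PLA.

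At Pcdhb12, the last gene of the first stretch, PL12 rather than PLA was the lowest line. It was at 11.6 and 9.35 CPM in PL1, 10.7 and 8.92 CPM in PLA4, 1.15 and 1.30 CPM in PLA and 0.696 and 0.588 CPM in PL12. The log2 fold change of PL12 against PL1 was -4.03 (SE 0.27, edgeR adjusted p = 0.000832).

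Pcdhb13 was the beta member that set PLA4 apart. PLA4 had 3.83 and 3.18 CPM, PL1 0.414 and 0.485 CPM, PLA 0.195 and 0.237 CPM, and PL12 0.0205 and 0.0459 CPM. The PLA4 libraries were above all others, and this was the only beta member called between PLA4 and PL1 (log2 fold change 2.96, SE 0.39, edgeR adjusted p = 0.0139). Without either PLA library the adjusted p was 0.0612 and 0.0611, in fits with 3 in place of 4 residual degrees of freedom.

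Pcdhb17, in the second stretch, was even across 3 lines. It was at 10.3 and 11.4 CPM in PL1, 10.8 and 10.2 CPM in PLA, 12.98 and 12.42 CPM in PLA4 and 2.33 and 2.09 CPM in PL12. PL12 was lower than PL1 by a log2 fold change of -2.29 (SE 0.18, edgeR adjusted p = 0.0012), whereas that of PLA against PL1 was -0.05 (SE 0.17, adjusted p = 0.859). Pcdhb22, the last gene of the cluster, showed the same grouping at 3.09 to 4.001 CPM in PL1, PLA and PLA4 and 1.00 to 1.34 CPM in PL12. Its log2 fold change of PL12 against PL1 was -1.48 (SE 0.29, adjusted p = 0.0155), with an adjusted p of 0.0567 to 0.106 when any library of PL12 or PLA was left out.

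Pcdhb20 and Pcdhb16 broke this pattern in opposite directions. Pcdhb20 was highest in PLA, at 5.73 and 5.53 CPM, against 1.73 to 2.48 CPM in PL1 and PLA4 and 0.675 and 0.597 CPM in PL12 (PLA against PL1 log2 fold change 1.43, SE 0.30, edgeR adjusted p = 0.0177). Pcdhb16 was at 5.71 and 6.46 CPM in PLA, between 9.44 and 16.6 CPM in PL1 and PLA4, and at 1.084 and 1.0935 CPM in PL12 (PLA against PL1 -1.07, SE 0.29, adjusted p = 0.0387). Both calls were lost when libraries were left out, in fits with 3 in place of 4 residual degrees of freedom, where the log2 fold change was 1.21 to 1.41 for Pcdhb20 and -1.21 to -1.025 for Pcdhb16. Libraries of PL12, which is not in the comparison, were among these for Pcdhb16. For Pcdhb20 the adjusted p was 0.0539 without PL1 replicate 1 and 0.122 to 0.133 without a PLA library, and for Pcdhb16 it was 0.0766 to 0.196 without any library of PL1, PL12 or PLA.

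The gamma sum differed less between lines than the beta sum, while single gamma isoforms changed from line to line. It was 120.2 and 98.8 CPM in PL1, 94.9 and 88.8 CPM in PL12, 145.5 and 144.1 CPM in PLA and 148.6 and 153.6 CPM in PLA4, so that the lines did not overlap. Most of the gamma sum came from Pcdhgc3, a C-type, which made up 52.4 to 72.3% of gamma TPM in every library. It was at 74.0 and 60.9 CPM in PL1, 68.7 and 66.5 CPM in PL12, 85.0 and 81.0 CPM in PLA and 77.7 and 108.8 CPM in PLA4. Its log2 fold changes between lines lay within 0.47 of 0, and it did not pass the test among lines (edgeR adjusted p = 0.140). The adjusted p was 0.0264 without PLA4 replicate 1.

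Gamma A and B isoforms, the variable types, were used in a different combination by each line. Pcdhgb1 was at 22.6 and 16.2 CPM in PL1 and 40.5 and 20.9 CPM in PLA4, but at 0.286 and 0.294 CPM in PL12 and 0.504 and 0.508 CPM in PLA. It was lower in PL12 than in PL1 by a log2 fold change of -6.05 (SE 0.42, edgeR adjusted p = 0.000895) and in PLA by -5.26 (SE 0.40, adjusted p = 0.00103). PL1 and PLA4 overlapped and were not called apart (0.66, SE 0.33, adjusted p = 0.232), although without PLA4 replicate 2 the adjusted p was 0.0369. Pcdhgb1 thus split each pair of lines of 1 kind.

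**Figure D4:**
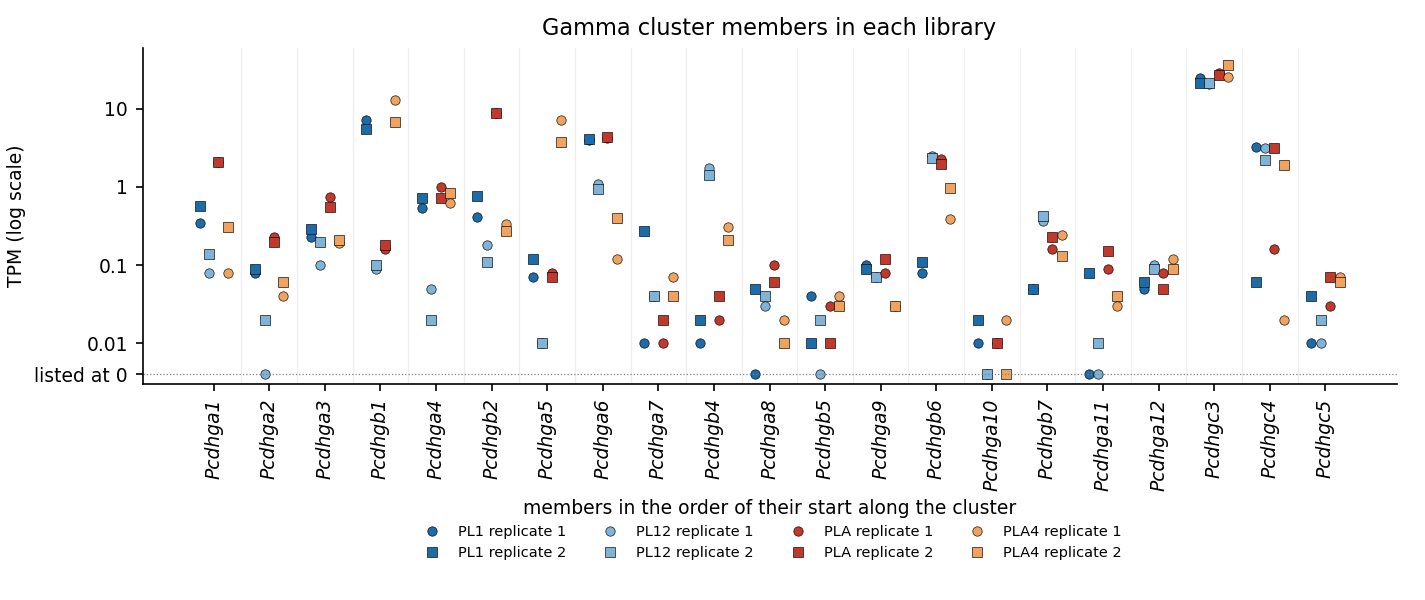
Deposited TPM (log y axis; values listed at 0 are drawn on the dotted line) of the 21 gamma members in the order of their starts (x axis); circles and squares are replicates 1 and 2 and colours the 4 lines. Pcdhgc3 is at 21.0 to 36.4 TPM in every library, while Pcdhgb1, Pcdhgb2, Pcdhga5 and Pcdhgb4 are each high in 1 or 2 lines.

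Pcdhga5 was at 22.4 and 11.3 CPM in PLA4 and at or below 0.353 CPM in the other 6 libraries. The log2 fold change of PLA4 against PL1 was 5.87 (SE 0.48, edgeR adjusted p = 0.0038). Pcdhgb2 took this place in PLA, at 26.3 CPM in both libraries against 0.202 to 2.20 CPM elsewhere. Its log2 fold change of PLA against PL1 was 3.95 (SE 0.56, adjusted p = 0.00495). Pcdhga5 and Pcdhgb2 start next to each other in the cluster.

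Pcdhga6, the next gene along, was at similar levels in PL1 and PLA and lower in PL12 and PLA4. It was at 12.71 and 12.04 CPM in PL1, 12.965 and 13.17 CPM in PLA, 3.62 and 3.01 CPM in PL12 and 0.387 and 1.22 CPM in PLA4. PL12 was lower than PL1 by a log2 fold change of -1.90 (SE 0.49, edgeR adjusted p = 0.0365). PLA4 was the lowest line, with a log2 fold change against PL1 of -3.94 (SE 0.53, edgeR adjusted p = 0.0150). That adjusted p was 0.0572 to 0.0576 when a library of PL12 or PLA was left out. Pcdhga1, the first gamma gene, was at 5.87 and 5.81 CPM in PLA and at or below 1.44 CPM elsewhere, with a log2 fold change of PLA against PL12 of 4.37 (SE 0.76, adjusted p = 0.00667, and 0.0594 without PL12 replicate 1). Against PL1 it was not called (2.27, SE 0.68, adjusted p = 0.0516), but it passed with DESeq2 (adjusted p = 0.00423) and without a filter on low counts (adjusted p = 0.0171).

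Further along the cluster, Pcdhgb4 and Pcdhgb6 were the variable isoforms with the highest TPM in PL12. Pcdhga6 followed there at 1.08 and 0.95 TPM, beside 1.77 and 1.41 TPM for Pcdhgb4. Pcdhgb4 was at 5.81 and 4.41 CPM in PL12, 0.944 and 0.623 CPM in PLA4 and at or below 0.118 CPM in PL1 and PLA. PL12 exceeded PL1 by a log2 fold change of 6.99 (SE 0.68, edgeR adjusted p = 0.00218). Pcdhgb6 was at 8.16 and 7.49 CPM in PL12, 6.95 and 5.92 CPM in PLA, 1.1997 and 2.94 CPM in PLA4 and 0.242 and 0.335 CPM in PL1. Its log2 fold change against PL1 was 4.75 in PL12 (SE 0.52, adjusted p = 0.00287) and 4.47 in PLA (SE 0.51, adjusted p = 0.00262). PL12 and PLA were not called apart at Pcdhgb6 (log2 fold change of PLA against PL12 -0.28, SE 0.43, adjusted p = 0.640).

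**Figure D5:**
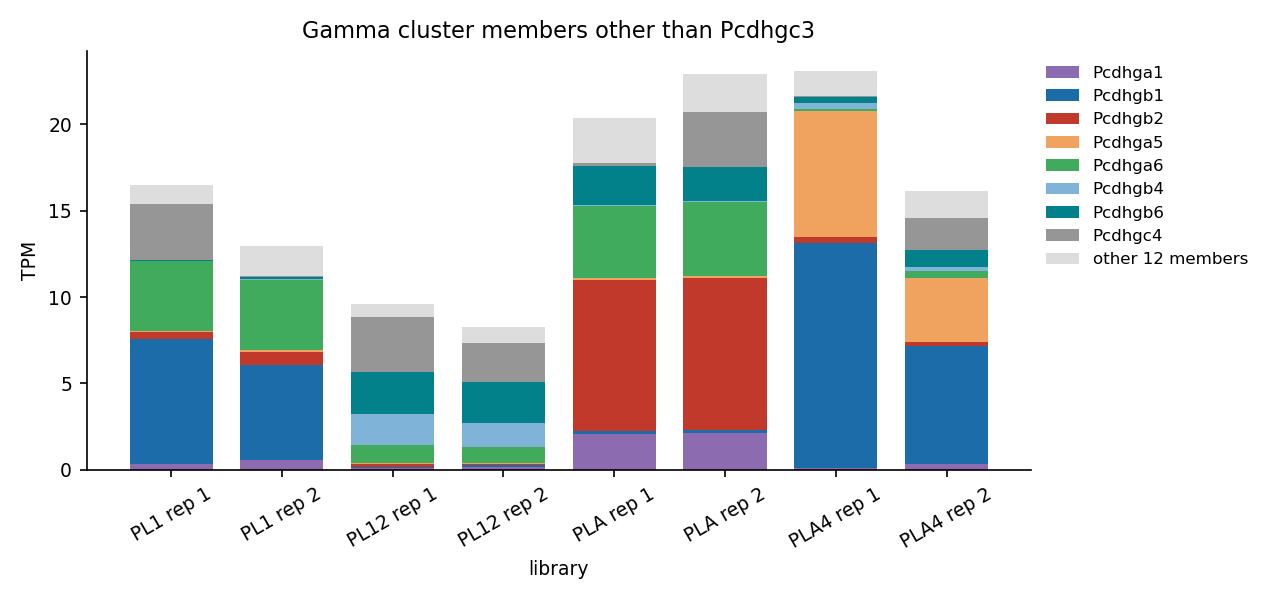
Stacked TPM (y axis from 0) of the gamma members other than Pcdhgc3 in each library (x axis). Pcdhgb1 leads in PL1 and PLA4, joined by Pcdhga6 in PL1 and Pcdhga5 in PLA4, Pcdhgb2 leads in PLA, and Pcdhgb6 and Pcdhgc4 lead in PL12. Pcdhgc4 also reaches 3.23 TPM in PL1 replicate 1 and 3.17 TPM in PLA replicate 2.

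Leaving out Pcdhgc3, 2 isoforms held most of the gamma TPM in each library. In PL1 these were Pcdhgb1 and Pcdhga6, with 68.1 and 73.7% of the rest. In PLA they were Pcdhgb2 and Pcdhga6, with 63.8 and 57.5%, and in PLA4 Pcdhgb1 and Pcdhga5, with 88.1 and 65.4%. In PL12 they were Pcdhgc4 and Pcdhgb6, with 58.6 and 55.7%. Pcdhgc4 was not particular to PL12. It was at 3.17 and 2.24 TPM there, 3.23 TPM in PL1 replicate 1 and 3.17 TPM in PLA replicate 2.

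Counted by comparison, gamma members were called in both directions. In PL12 against PL1, 3 of 20 were higher and 5 lower (40% called, beside 23.7% of all genes), and in PLA4 against PLA 3 were higher and 6 lower (45%, beside 29%). PLA against PL1 gave 3 higher and 1 lower (20%, beside 27.3%), and PLA against PL12 7 higher and 1 lower (40%, beside 37.7%). PLA4 gave 3 higher and 1 lower against PL1 (20%, beside 8.54%), and 3 higher and 3 lower against PL12 (30%, beside 36%). The shares were thus near or below those of all genes in PLA against either PL line and in PLA4 against PL12. Without PLA4 replicate 2, 7 gamma members were called in PLA4 against PL1, and without any library of PL12 or PLA 1 or 2 were. Without a PL12 library PL12 against PL1 gave 5 and 4, without a PLA library PLA4 against PLA gave 4 and 5, PLA against PL12 gave 4 without PL12 replicate 1 or either PLA library, and PLA4 against PL12 gave 3 without PL12 replicate 1.

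The C-type Pcdhgc4 differed more between replicates than between lines. It was at 4.80 and 0.141 CPM in PL1, 0.276 and 4.45 CPM in PLA, 0.0697 and 2.68 CPM in PLA4 and 4.87 and 3.43 CPM in PL12. The replicates were thus 34.0-fold apart in PL1, 16.1-fold in PLA and 38.5-fold in PLA4, and the gene did not pass the test among lines (edgeR adjusted p = 0.890). In PLA it was among only 8 of 18648 genes that differed over 2-fold between the replicates (CPM + 1).

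The 3 gamma C-types together summed to 85.4 and 85.6 CPM in the PLA libraries, 78.9 and 61.2 CPM in PL1, 73.6 and 70.004 CPM in PL12 and 77.9 and 111.6 CPM in PLA4. Pcdhgc3 held 99.3 and 89.4% of the C-type TPM in the PLA libraries, so these sums could hardly show the gap at Pcdhgc4. The sums of the PL1 and of the PLA4 replicates differed. Pcdhgc4 has 3 annotated transcripts of 2272, 3100 and 5024 bases. In PLA replicate 2 its estimated count per unit of TPM was 166, against 351 for Pcdhgc3 in the same library, and in PLA replicate 1 it was 215 against 368. A lower count per TPM means that the reads were assigned to a shorter effective length. Whether the division of reads between the isoforms set the gap was not tested. Pcdhgc5, the last C-type, reached at most 0.194 CPM and did not pass.

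Apart from these genes, 8 gamma members between Pcdhga7 and Pcdhga12 stayed at or below 0.42 TPM in all libraries, Pcdhgb4 and Pcdhgb6 being the exceptions in that stretch. The pseudogene Pcdhgb8 was at 0.143 to 1.63 CPM. The read-through gene Gm42416 had an estimated count of 4.37 in 1 library and Gm37013 and Gm37388 had none.

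PLA lines against PL lines is the comparison the series is about, and no clustered protocadherin separated them by test. In the fit over 8 libraries, 0 of the 45 members passed in all 4 pairings of a PLA with a PL line and in 1 direction, while 1.99% of all genes did. On counts summed per line, with 2 lines of each kind, edgeR called 0 of 44 members and 0 of 18859 genes, and none of the 44 had an unadjusted p below 0.05, as 867 genes did. DESeq2 called 0 members and 354 genes (1.88%) on the same sums. The members' median log2 fold change of PLA against PL lines was 0.39, beside 0.04 over all genes. Of the 45 members, only Pcdhgc3 had all 4 PLA libraries on one side of all 4 PL libraries, at 77.7 to 108.8 CPM against 60.9 to 74.0 CPM, and 15.7% of all genes tested were separated in either direction and 8.56% with the PLA lines higher. The gamma sum, which carries no test, was also higher in all 4 PLA libraries, at 144.1 to 153.6 CPM against 88.8 to 120.2 CPM.

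Pairs of lines differed in many members both within and across the kinds. PL12 against PL1 gave 29 of 45 (3 higher and 26 lower, beside 23.7% of all genes called) and PLA4 against PLA 26 of 45 (19 higher and 7 lower, beside 29%). Across kinds, PLA against PL1 gave 20 (beside 27.3%), PLA against PL12 26 (beside 37.7%), PLA4 against PL12 28 (beside 36%), and PLA4 against PL1 6. The last pair therefore had the smallest count, beside 8.54% of all genes, which was also the smallest background of the 6 pairs. Its count was 17 when PL1 replicate 1 was left out together with PLA4 replicate 2, 14 when PL1 replicate 2 was left out together with PLA4 replicate 1, and 2 without any 1 library of PL12 or PLA. Without a PL12 library PL12 against PL1 gave 16 and 14, and without a PLA library PLA4 against PLA gave 13 and 15. Without a PLA library PLA against PL1 gave 9 and 12 and PLA against PL12 15 and 12, without a PL12 library the latter gave 16 and 17, and without PL12 replicate 1 PLA4 against PL12 gave 16.

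Levels of the beta members kept much of their rank order. Over the 22 beta genes, Spearman's rho of the TPM means was 0.8 between PL1 and PL12, 0.735 between PL1 and PLA4 and 0.477 between PLA and PLA4. Replicates of a line had rho between 0.884 and 0.969. These values are across genes that share libraries, and they are descriptions.

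Factors that control the clusters in other cells were also measured, from a list of 25 that includes CTCF, cohesin and its loaders, DNA methyltransferases and demethylases and repressors. All 25 passed the filter, 21 differed among lines (52.9% of all genes did), and 0 were called in all 4 pairings of a PLA with a PL line. In PLA, 3 were higher and 10 lower than in PL1 (beside 14.4% and 13% of all genes), with a median log2 fold change of -0.36, and 5 were higher and 12 lower than in PL12 (beside 20.4% and 17.3%). Tet1, a DNA demethylase, was at 1.19 and 1.89 CPM in PL1, 1.105 and 0.717 CPM in PL12, 0.0162 and 0.0339 CPM in PLA and 4.48 and 4.38 CPM in PLA4 (edgeR adjusted p among lines = 0.00133). Uhrf1, which guides maintenance methylation, was at 22.4 and 23.2 CPM in PLA against 63.6 to 147.8 CPM elsewhere (adjusted p = 0.00165). PLA was thus the lowest line in these 2 genes, and PLA4 was the highest in Tet1. The part of these genes in the beta and gamma levels was not tested.

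Protocadherins outside the clusters did not follow the beta sums as a group. Of 12 such genes 7 passed the filter and 5 differed among lines, beside 52.9% of all genes. Pcdh18 was at 35.4 and 14.0 CPM in PL1, 44.9 and 34.6 CPM in PLA4, 18.2 and 18.7 CPM in PLA and 2.82 and 2.58 CPM in PL12 (edgeR adjusted p among lines = 0.00451), so that it was lowest in PL12 as the beta sum was. Pcdh19 was highest in PL12, at 4.83 and 4.29 CPM against at most 1.14 CPM elsewhere (adjusted p = 0.00717). Pcdh9 was also highest in PL12, at 1.62 and 1.69 CPM against at most 0.238 CPM (adjusted p = 0.0144).

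Genes next to the clusters were compared as a local reference. Of 18 such genes 16 were tested and 8 differed among lines, a share near the 52.9% of all genes. Pcdh1 and Pcdh12 are both in this list and in that of the protocadherins outside the clusters. In PL12 against PL1, 2 were higher and 0 lower (median log2 fold change 0.27), beside 11.2% and 12.5% of all genes. Of the beta members, 19 of 21 were lower in the same comparison. The part of the wider region in the beta levels was not tested. Fchsd1 was highest in PLA, at 17.1 and 16.2 CPM against 5.90 to 10.3 CPM (edgeR adjusted p among lines = 0.00478). Hars, a histidyl-tRNA synthetase, was highest in PL12, at 118.0 and 121.6 CPM against 63.3 to 86.9 CPM (adjusted p = 0.0127), and Diaph1, an actin regulator, was at 146.7 and 142.5 CPM there against 93.8 to 135.1 CPM (adjusted p = 0.0149). None of these 3 genes was called lower in PL12 than in PL1.

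Of 24 genes that act with protocadherins at the membrane, such as kinases, the WAVE complex and the proteases that cut them, all were tested and 10 differed among lines, beside 52.9% of all genes. Rac1, a GTPase of the actin cytoskeleton, was at 726 and 731 CPM in PLA, 514 and 522 CPM in PL12 and 237 to 290 CPM in PL1 and PLA4 (edgeR adjusted p = 0.00163). Axin1 was highest in PLA at 95.8 and 97.99 CPM and lowest in PLA4 at 34.9 and 46.5 CPM (adjusted p = 0.00441). Cyfip2, a WAVE complex subunit, was at 7.12 and 7.19 CPM in PLA, 5.40 and 2.38 CPM in PL1 and at or below 1.16 CPM in PL12 and PLA4 (adjusted p = 0.00494).

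Markers of other cell types that use these genes were read beside the beta sums. Alveolar markers summed to 0.367 to 9.23 CPM, highest in PL12, immune markers to 5.52 to 83.9 CPM, highest in PLA, and endothelial markers to at most 2.44 CPM. The neuronal list of 10 summed to 109.85 to 494 CPM in PL1, 319 to 407 CPM in PLA4, 130.0 to 144 CPM in PLA and 58.4 to 60.8 CPM in PL12. Nearly all of it was Ncam1, an adhesion molecule of many cells, and the defining genes Neurod1, Chga, Rbfox3 and Elavl4 were at or below 0.0508 CPM. Of the rest, Snap25, a synaptic protein, was at 9.15 and 6.34 CPM in PL1, 2.32 to 2.63 CPM in PLA and PLA4 and 0.512 and 0.404 CPM in PL12 (edgeR adjusted p among lines = 0.00145), Map2 reached 4.91 CPM and Tubb3 2.43 CPM. The fibroblast and smooth muscle list of 9 summed to 197 to 353 CPM in PL1, 592 to 773 CPM in PLA4, 70.7 to 79.1 CPM in PLA and 10.3 to 11.9 CPM in PL12. Acta2, a smooth muscle actin, made up most of it outside PL1 replicate 2, and Thy1 stayed at or below 0.0232 CPM. Pdgfra, a growth factor receptor of fibroblasts, was at 2.47 to 7.68 CPM in PL1 and PLA4 and at or below 0.471 CPM in PL12 and PLA (adjusted p = 0.00273). Of the lists, 5 of 10 and 8 of 9 genes passed the low-count filter. Both lists were thus lowest in PL12, as the beta sum was, and higher in PL1 and PLA4 than in PLA, except for the neuronal list in PL1 replicate 2. The squamous and basal list was also lowest in PL12, at 2778 and 2757 CPM against 9841 to 19012 CPM elsewhere. So was the endothelial list, at 0.430 and 0.377 CPM. The 2 PL1 libraries had beta sums of 90.7 and 89.1 CPM and Col1a1 levels of 0.575 and 254 CPM. In bulk RNA, fewer cells that express a gene and less RNA per cell cannot be told apart, and the part of these markers in the beta levels was not tested.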

How the data were processed

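RNA-seq libraries were made with the SMARTer PCR cDNA and Nextera XT kits, per the labels' protocols. Per the file headers, the authors deposited an expected count for each gene and library, an estimate that can be fractional, and a TPM value beside it. FastQC, STAR, RSEM and DESeq2 were used on the GRCm38 build, per the submitters' processing notes; versions and the annotation release are not given in the sources used here. Gene positions came from GENCODE mouse release 21, which held all 57 member identifiers with their versions.

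Expected counts were rounded and fitted for all genes with edgeR 4.0.16 (limma 3.58.1, R 4.3.3) by its quasi-likelihood test, 1 mean per line over 8 libraries, with TMM scaling and filterByExpr (minimum count 10, minimum total 15), which left 18648 genes and 4 residual degrees of freedom. Adjusted p is by Benjamini-Hochberg over all genes tested, at a threshold of 0.05. Counts summed per line were tested likewise on 18859 genes. The fit was tested on simulated counts with 4- and 16-fold changes in both PLA lines. PLA against PL1 recovered 55% and 74% of these changes, with 8 false calls. The test among lines recovered 60% and 79%, with 10 false calls. A gene that was not called may therefore still differ. Standard errors were derived from the F statistic. Cluster sums carry no test. Depth is 48857960 to 142458281 counts per library.

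Alternatives were DESeq2 (1.42.0) and its size factors, other filters, the replicate number as a block, limma on log2(TPM + 1) and log2(TPM + 0.1), and leaving out libraries. The members and gene lists were chosen with earlier results of these data known. Described singly were, per cluster, up to 8 members with the largest mean TPM of at least 0.5, all C-types and the 4 smallest p among lines, and of each gene list the 3 smallest p. A gene of these that is withheld is not reported here. Other genes named for a check were chosen after their values were seen. No member sequences are shown.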

Additional observations from a re-analysis of the deposited data

How the results depend on the processing

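The number of members that differed among lines was 25 to 38 under all alternatives and kept within 1.5 times of 34. The count in all 4 pairings of a PLA with a PL line and the count on summed profiles were 0 under every alternative that was run. Leaving out 1 library gave 14 to 30 members in PL12 against PL1, 13 to 26 in PLA4 against PLA, 9 to 21 in PLA against PL1, 12 to 28 in PLA against PL12, 2 to 9 in PLA4 against PL1 and 16 to 29 in PLA4 against PL12. With 2 libraries left out together, PLA4 against PL1 gave 17 (without PL1 replicate 1 and PLA4 replicate 2) and 14 (without PL1 replicate 2 and PLA4 replicate 1); in the latter the log2 fold change was -0.12 for Pcdhgb1 in PLA4 against PL1 (adjusted p = 0.522) and 0.025 for Pcdhb17 in PLA against PL1 (adjusted p = 0.884). Limma on log2(TPM + 1), which tested 28 members, gave 18 in PL12 against PL1 and 14 in PLA against PL12, and limma on log2(TPM + 0.1) gave 13 in PLA against PL1. The cause was not tested.

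The log2 ratio of the beta sums of PL12 and PL1 was -2.86, and -2.98 from deposited TPM. That of PLA and PL1 was -1.24, -1.29 without TMM factors and -1.44 from TPM.

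The lines share replicate numbers, but deviations of same-numbered libraries from their line means correlated at only -0.194 to 0.0148 across genes, so the numbers were not taken to pair libraries. With the replicate number as a block, 34 members differed among lines, and the pairs gave 25 (PL12 against PL1), 23 (PLA4 against PLA), 20 (PLA against PL1), 25 (PLA against PL12), 4 (PLA4 against PL1) and 28 (PLA4 against PL12), with 0 in all 4 pairings. No paired analysis was possible on the summed profiles because each line is there 1 sample.

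Depth limits the alpha cluster, where 10 of 14 members had too few counts to test. Isoforms of the alpha and gamma clusters share exons, so their single levels depend on how reads were divided.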
